A study of Arabidopsis thaliana with 6 samples.

Results

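The genes described are AUR1, AUR2, ICU2, PRL and TOPII, which code for proteins of mitosis and DNA replication in Arabidopsis thaliana. They were taken by gene symbol from the table that pairs probe sets with genes, not by their signals. The gene table assigns single-gene probe sets to 13356 genes, of which 6275 were bright enough to test, and all 5 were among these, each through 1 probe set. Expression was measured on 6 Affymetrix ATH1 arrays of accession Landsberg erecta, without any transgene or treatment named in the labels. Plants were 6 weeks old and were kept in 16 h of light and 8 h of darkness at 21 °C and 70% humidity. The 3 groups were complete closed flower buds from shortly before pollination, complete open flowers after pollination, and siliques taken 2 d after pollination from which the withering flower organs were left out. Each group had 2 arrays, from material pooled over 12 plants, and the whole experiment was done a second time to give replicate 2.

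A dividing plant cell copies its DNA once and then separates the copies in mitosis. PRL (PROLIFERA) is MCM7, a subunit of the MCM helicase that opens DNA at replication origins, and ICU2 is the catalytic subunit of DNA polymerase alpha, which begins new DNA strands. TOPII, topoisomerase II, passes one DNA duplex through another and untangles sister chromosomes before they part. AUR1 and AUR2 are closely related Aurora kinases that act on the mitotic spindle and on the plane of division. In flowers such cells are found in growing organs, in developing pollen and ovules before fertilisation, and in the seed after it.

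The values are MAS5 signals on a linear scale, and a signal is compared only between arrays and not between genes. Median signals fell by stage, from 48.1 and 48.3 in buds to 45.4 and 43.8 in flowers and 41.5 and 41.6 in siliques. Log2 signals correlated at 0.936 to 0.963 between arrays of 1 stage and at 0.733 to 0.870 between stages. The anther markers AT5G07230, ATA27 and SHT were bright in buds and close to background in siliques. SPL, another anther marker, was at 59.2 and 57.8 in buds and at 2.10 and 1.31 in siliques. The nectary gene SWEET9 was bright in flowers, and the seed coat gene BAN was brightest in siliques. The ovule gene INO ran from 55.1 to 77.6 with no called change. Whole organs were used, so fewer cells of a type and less RNA per cell cannot be told apart, and the organs harvested differ between the stages by design. Signals are given with their SD over 2 arrays and log2 changes with the standard error from limma, and a change is called where its Benjamini-Hochberg adjusted p is under 0.05.

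None of the 5 genes passed the test in any comparison. Of 12075 probe sets tested, 10.7% were called in flowers against buds (4.53% higher, 6.13% lower), 14.7% in siliques against flowers (7.23% higher, 7.45% lower) and 15.6% in siliques against buds (7.03% higher, 8.52% lower). Probe sets called lower in both flowers and siliques than in buds made up 4.39%, and 0 of the 5 genes were among them. At an unadjusted p under 0.05 in limma, 0, 2 and 2 of the 5 genes passed in these comparisons, AUR1 and AUR2 both times. Over all probe sets 25%, 31.6% and 32.5% passed in the same way, so 2 of 5 is close to the background. A moderated F test over the 3 stages called 21.2% of all probe sets and none of the 5 genes. The 95% intervals below show which changes these arrays still allow.

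AUR1 (AT4G32830) was at 144 and 155 in buds (replicates 1 and 2), at 135 and 143 in flowers, and at 104 and 101 in siliques. Both silique arrays lay below the other 4 arrays, whereas the bud and flower arrays lay close to each other. The stage means were 149 ± 7.6, 139 ± 5.9 and 102 ± 2.1 (SD, n = 2). In siliques against buds the log2 change was −0.51 ± 0.14, with a 95% interval of −0.83 to −0.18 and an adjusted p of 0.0518. With the replicate number as a term in the model the same change had an adjusted p of 0.0487, so AUR1 was called under that fit, as were 2427 of all 12075 probe sets. Against flowers the change in siliques was −0.41 ± 0.14 (interval −0.74 to −0.09, adjusted p = 0.0918). Flowers and buds differed by −0.10 ± 0.14, with an interval of −0.42 to 0.23 (adjusted p = 0.720).

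AUR2 (AT2G25880), the paralogue of AUR1, was at 95.1 and 100.5 in buds, at 98.2 and 87.3 in flowers, and at 69.4 and 71.2 in siliques. Again both silique arrays were the lowest of the 6, and the bud and flower arrays overlapped. Means were 97.8 ± 3.8, 92.7 ± 7.7 and 70.3 ± 1.3 (SD, n = 2). The log2 change of AUR2 was −0.42 ± 0.14 in siliques against buds (interval −0.77 to −0.08, adjusted p = 0.0969) and −0.35 ± 0.14 in siliques against flowers (interval −0.70 to −0.01, adjusted p = 0.151). Within replicate 1 the difference between siliques and buds was −0.40, and within replicate 2 it was −0.44. AUR1 gave −0.44 and −0.57 in the same way, so both kinases were lower in siliques in both runs of the experiment. Of all tested probe sets, 30.5% had both silique arrays below both bud arrays and 29.2% had both below the flower arrays. AUR1 alone of the 5 genes had both flower arrays below both bud arrays, which held for 29.5% of probe sets, and 0 of the 5 had them above (25.8% of probe sets). Whether the probes of AUR1 and AUR2 also bind the transcript of the other gene was not tested. Centring every array on its median moved the median change of all probe sets in siliques against buds to 0.17, and AUR1 and AUR2 then stood at −0.33 (adjusted p = 0.136) and −0.25 (adjusted p = 0.250).

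**Figure D1:**
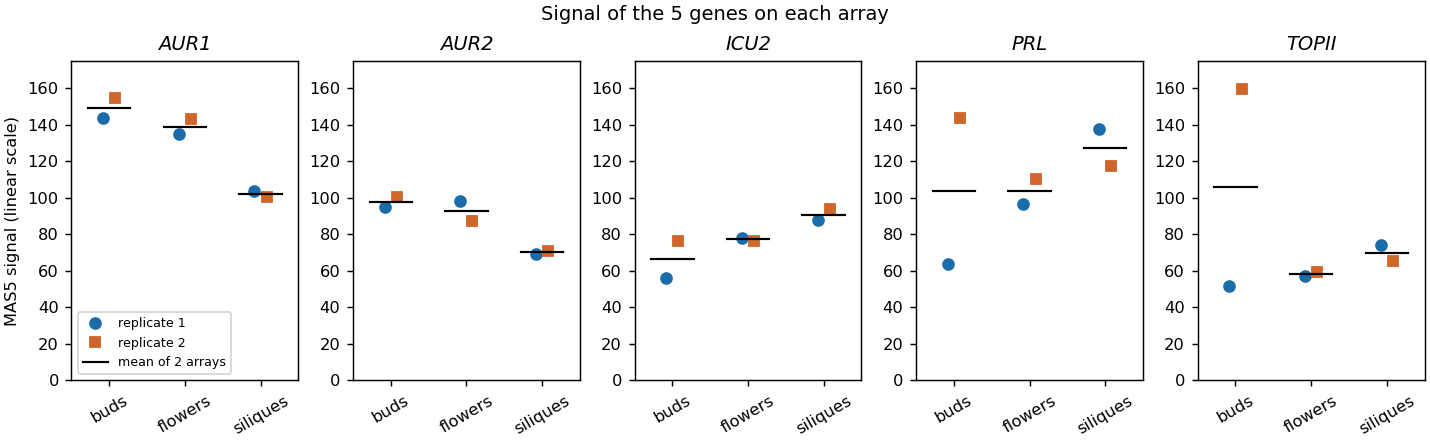
MAS5 signal on a linear scale (y axis, from 0) of AUR1, AUR2, ICU2, PRL and TOPII in buds, flowers and siliques. Circles are replicate 1, squares replicate 2 and lines the mean of 2 arrays. AUR1 and AUR2 are lowest in siliques, and PRL and TOPII differ most between the bud arrays (63.5 and 144 for PRL, 51.8 and 160 for TOPII).

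ICU2 (AT5G67100) ran the other way. Its signal was 56.3 and 76.6 in buds, 78.1 and 76.5 in flowers, and 87.6 and 94.1 in siliques. The silique arrays were the highest and did not overlap the others, while the brighter bud array lay between the flower arrays. Stage means were 66.4 ± 14.3, 77.3 ± 1.1 and 90.8 ± 4.6 (SD, n = 2). The log2 change of ICU2 in siliques against buds was 0.41 ± 0.18 (interval −0.01 to 0.84, adjusted p = 0.164), or 0.56 within replicate 1 and 0.27 within replicate 2. Against flowers it was 0.21 ± 0.18 (interval −0.22 to 0.63, adjusted p = 0.477), and flowers against buds gave 0.20 ± 0.18 (interval −0.22 to 0.63, adjusted p = 0.538). Of all tested probe sets, 30.5% had both silique arrays above both bud arrays. Both silique arrays were above both flower arrays for ICU2, PRL and TOPII, as for 33.2% of probe sets.

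PRL (AT4G02060) was at 63.5 and 144 in buds, at 96.8 and 110 in flowers, and at 138 and 118 in siliques. The bud arrays were the lowest and the highest of the 6, so the bud values enclosed those of both other stages. The flower and silique arrays did not overlap, with means of 104 ± 9.6 and 128 ± 14.2 (SD, n = 2) and a log2 change of 0.27 ± 0.33 (interval −0.52 to 1.07, adjusted p = 0.621). Siliques against buds gave 0.37 ± 0.33 (interval −0.42 to 1.16, adjusted p = 0.486), made up of 1.01 within replicate 1 and −0.27 within replicate 2. Flowers against buds gave 0.09 ± 0.33 (interval −0.70 to 0.88, adjusted p = 0.904), or 0.54 and −0.35 by replicate. Without buds 2, PRL was called higher in siliques than in buds (log2 change 0.90, adjusted p = 0.0382). Without buds 1 the change was −0.17 (adjusted p = 0.661), so 1 bud array set the sign.

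TOPII (AT3G23890) was at 51.8 and 160 in buds, at 57.0 and 59.6 in flowers, and at 74.3 and 65.2 in siliques. Buds 2 stood far above all other arrays, and buds 1 was the lowest of all. The silique arrays were both above the flower arrays, with means of 69.8 ± 6.4 and 58.3 ± 1.8 (SD, n = 2) and a log2 change of 0.22 ± 0.43 (interval −0.80 to 1.25, adjusted p = 0.767). Flowers against buds gave −0.58 ± 0.43 (interval −1.61 to 0.44, adjusted p = 0.458), or 0.12 within replicate 1 and −1.29 within replicate 2. Siliques against buds gave −0.36 ± 0.43 (interval −1.39 to 0.66, adjusted p = 0.601), or 0.45 and −1.17 by replicate. Without buds 1, TOPII was called lower in flowers (log2 change −1.31, adjusted p = 0.0153) and in siliques (−1.09, adjusted p = 0.0274) than in buds. Without buds 2 the changes were 0.15 (adjusted p = 0.718) and 0.37 (adjusted p = 0.252). For these 2 genes the bud level is therefore known only to within the range of the bud arrays.

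**Figure D2:**
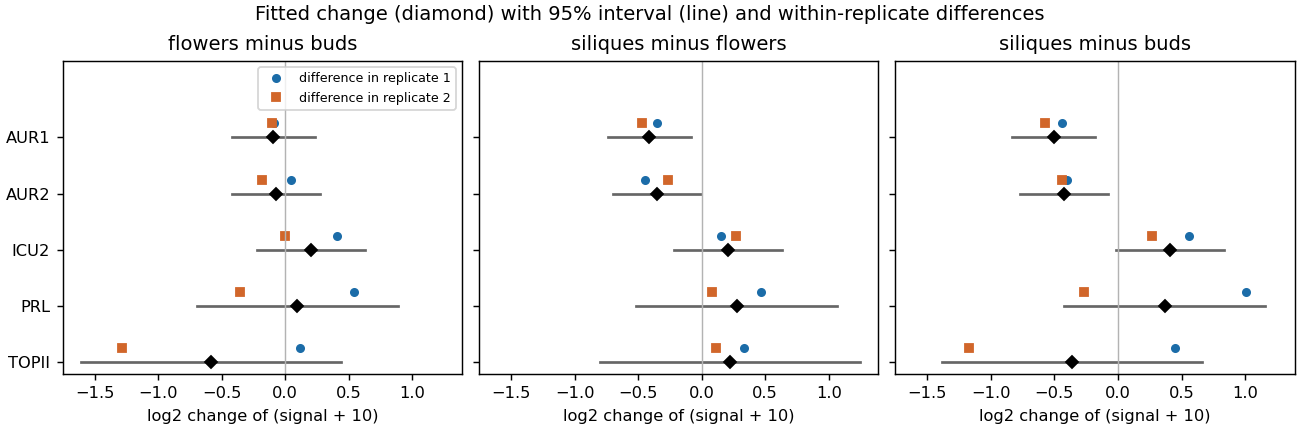
Fitted log2 change of signal + 10 (x axis) for each gene in the 3 comparisons; diamonds are limma estimates, lines their 95% intervals, circles and squares the differences within replicates 1 and 2. In siliques minus buds the intervals of AUR1 and AUR2, not adjusted for the number of tests, lie below 0, though neither change is called. The replicates of PRL (1.01 and −0.27) and TOPII (0.45 and −1.17) have opposite signs in that comparison.

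By means of the log2 signal, the stage order was buds, flowers, siliques from high to low for AUR1 and AUR2. That order held for 18.7% of all tested probe sets. It was the reverse for ICU2 and PRL, although the bud arrays of PRL enclosed all the others. The share of probe sets with the reverse order was not counted. As given above, none of the changes between stages passed the test in AUR1, AUR2, ICU2 or PRL. PRL and TOPII shared 1 order over the 6 arrays: buds 2 was highest, then siliques 1, siliques 2, flowers 2 and flowers 1, and buds 1 was lowest. Over all 6 arrays the ratio of the highest to the lowest signal was 1.54 for AUR1, 1.45 for AUR2, 1.67 for ICU2, 2.27 for PRL and 3.09 for TOPII. For PRL and TOPII that ratio is the one between the bud arrays alone.

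All 5 genes were higher in buds 2 than in buds 1, as were 52.6% of all tested probe sets. On the log2 scale the difference was 0.10 for AUR1, 0.07 for AUR2, 0.38 for ICU2, 1.07 for PRL and 1.46 for TOPII. Of tested probe sets, 41.0% were at least as much higher in buds 2 as AUR1, 44.1% as AUR2 and 13.5% as ICU2. For PRL that share was 0.588% and for TOPII 0.108%. In flowers the replicates of PRL and TOPII differed by 0.17 and 0.05, and in siliques by −0.21 and −0.16. Further genes of cell division varied in direction. All 4 histone H2B genes with a probe set (HTB1, HTB2, HTB4 and HTB11, which package newly made DNA) were higher in buds 2, with a median difference of 0.47. HTB1, for example, was at 369 in buds 1 and 522 in buds 2. Of the DNA replication list 5 of 5 genes with a probe set were higher in buds 2 (median 0.12), and of the mitosis and cytokinesis list 5 of 6 (median 0.30). In the replication list 2 genes were below the filter on low signals, and in the mitosis list all 5 that were higher in buds 2 were below it, whereas the tested gene, BUB3.1, was at 98.2 in buds 1 and 93.5 in buds 2. SIM, placed in the list for entry into replication, was also lower in buds 2. In the further group described below 13 of 18 genes were higher (median 0.23) and 5 lower, such as SKP2A at 241 and 134. Other lists leaned to buds 2 as well. Markers of nuclear photosynthesis were higher there in 5 of 6 (median 0.07) and ovule and seed coat markers in 3 of 4 (median 0.05). Repair genes were higher in 10 of 14 (median 0.17) and meiosis genes in 6 of 8 (median 0.44), mostly on signals below the filter. Nectary and petal markers were split, 1 of 2, and pollen markers mostly went the other way. No test was made of these differences. The median over all tested probe sets was 0.02.

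Markers of anther cells also differed between the bud arrays. Of the tapetum and young anther markers 4 of 5 were higher in buds 2 (median 1.10). AT5G07230 was at 553 in buds 1 and 1199 in buds 2, and SHT, a tapetum enzyme that conjugates spermidine, at 195 and 463. AMS, a tapetum regulator below the filter, was at 16.9 and 56.5. ATA27 differed less, at 1439 and 1581. SPL, which starts spore formation, was at 59.2 and 57.8. Of the pollen markers 6 of 7 were lower in buds 2 (median −0.79), such as the sperm histone MGH3 at 206 and 103, AGL66, a pollen MADS-box factor, at 126 and 63.3, and ANX2, a receptor kinase of the pollen tube, at 61.8 and 25.4. The summed signal of the tapetum list was 2264 in buds 1 and 3357 in buds 2, against 10.7 to 64.3 in flowers and 18.7 to 20.8 in siliques. That of the pollen list was 2526 and 1863 in buds, 2104 to 2300 in flowers and 578 to 1056 in siliques. Most of it came from AT5G45880, at 1723 and 1287 in buds and 2034 and 1807 in flowers. In flowers against buds 3 of 6 tested pollen markers were called lower (AtVEX1, AGL104 and AGL66), where 6.13% of all probe sets were. With an offset of 1 that count was 2. It was 1 with the stricter filter (a signal of 100 on at least 2 arrays), under which AGL104 and AGL66 were not tested. Without a call, MGH3 was lower (log2 change −1.18) and ANX2 (1.47) and AT5G45880 (0.36) were higher. No marker was listed at 0 on any array. The part of these cell types in the bud values of PRL and TOPII was not tested.

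**Figure D3:**
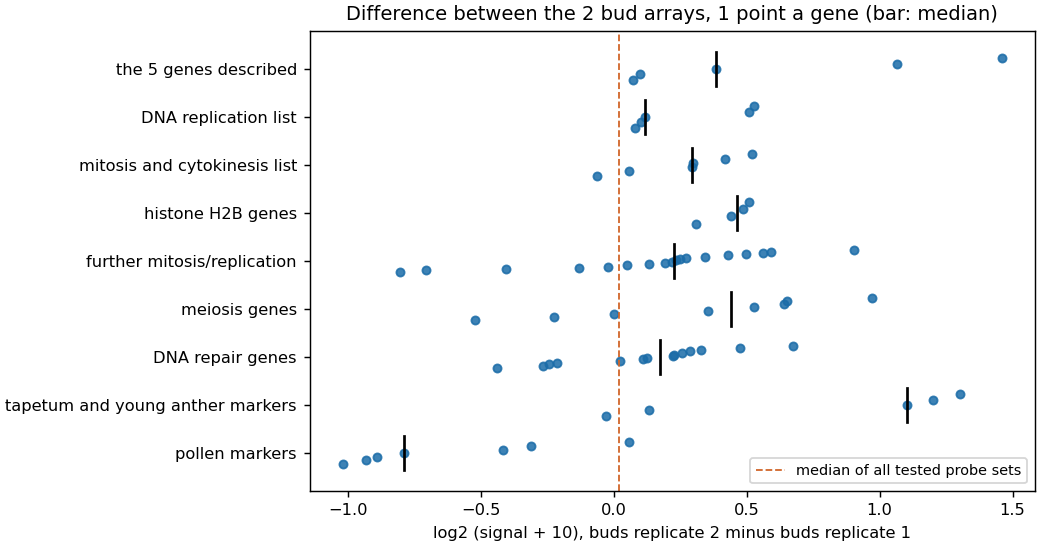
Difference in log2 of signal + 10 between buds replicate 2 and buds replicate 1 (x axis), 1 point a gene and a bar for the median of each list (y axis). PRL (1.07) and TOPII (1.46) lie at the right, where 3 of the 5 tapetum and young anther markers also are (median 1.10), the H2B genes are all to the right of 0, and 6 of 7 pollen markers lie to the left (median −0.79).

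Other genes of the same processes were looked up from 4 lists, for DNA replication, mitosis and cytokinesis, the control of entry into replication, and histones made during replication. The gene table gave only 16 of their 142 genes a single-gene probe set, and 9 were bright enough to test. None of the 9 was called in any comparison, although POLA3 was called higher in siliques than in buds with median centring (log2 change 0.62, adjusted p = 0.0393). At an unadjusted p under 0.05, SIM, an inhibitor of cyclin-dependent kinases, passed in flowers against buds, and POLA3, a primase subunit, in siliques against buds. That is 1 of 9 in each, where 25% and 32.5% of all probe sets passed. POLA3 was at 68.4 and 75.1 in buds, 78.6 and 91.1 in flowers, and 94.6 and 108 in siliques, with no overlap between stages and a log2 change of 0.44 in siliques against buds (adjusted p = 0.106). The DNA replication list had 3 tested genes, POLA3, AT5G26680 and AT3G42660, with median log2 changes of 0.12, 0.21 and 0.33 in flowers against buds, siliques against flowers and siliques against buds. The median over all tested probe sets was −0.01, 0.02 and −0.00034. The 4 H2B genes had medians of 0.07, 0.17 and 0.35, and HTB11, for example, was at 144 and 200 in buds, 215 and 193 in flowers, and 247 and 216 in siliques (adjusted p = 0.181 against buds).

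In the mitosis and cytokinesis list BUB3.1, of the spindle checkpoint, was the only tested gene. It was at 98.2 and 93.5 in buds, 99.6 and 64.6 in flowers, and 94.0 and 61.5 in siliques, so replicate 2 was the lower array in each stage. Another 5 genes with a probe set stayed below the filter. They were AUR3, the Aurora kinase of the centromere (28.8 to 47.2 over the 6 arrays), HTR12, the centromeric histone H3, WYR, 3xHMG-box1 and BUBR1, another checkpoint gene. Over all of them signals ran from 10.3 to 47.2. SIM, the only tested gene of the list for entry into replication, was at 164 and 150 in buds, 104 and 121 in flowers, and 148 and 118 in siliques (log2 change −0.45 in flowers against buds, adjusted p = 0.159).

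A further group of 18 mitosis and replication genes was set up from the symbols in the gene table, and 13 of them were tested. In this group 0 genes were called in flowers against buds, whereas SKP2A was called lower in siliques against flowers and in siliques against buds and was the only one called. With median centring TPLATE was called higher in flowers than in buds (log2 change 0.62, adjusted p = 0.0436). SKP2A, an F-box protein that marks cell cycle regulators for breakdown, was at 241 and 134 in buds, 383 and 412 in flowers, and 36.7 and 71.6 in siliques. The silique arrays lay below all others and the flower arrays above. Its log2 change was −2.72 against flowers (adjusted p = 0.00732) and −1.62 against buds (adjusted p = 0.0238), the second being lost without buds 1 (adjusted p = 0.0987) or siliques 1 (adjusted p = 0.107). Of the pollen markers, whose summed signals are given above, 3 of 6 tested were called lower in siliques than in flowers and 4 of 6 lower than in buds, where 7.45% and 8.52% of all probe sets were called lower. AtVEX1 was the exception in direction against flowers (log2 change 0.25, not called). The 3 calls against flowers fell to 0 when no filter was set, and they did not hold when flowers 1, flowers 2 or siliques 1 was left out. The 4 against buds became 2 with the stricter filter (a signal of 100 on at least 2 arrays). AGL104 and AGL66, both called against buds, were no longer tested under it. In flowers against buds the log2 change of SKP2A was 1.10 (adjusted p = 0.0985). In that comparison 3 of the 6 tested pollen markers were called lower, and ANX2 was higher (1.47, adjusted p = 0.0709). The part of the pollen markers in the changes of SKP2A was not tested.

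The 12 other tested genes of this group had smaller changes, and the group medians were −0.0027, −0.05 and −0.15 in the 3 comparisons. At an unadjusted p under 0.05, 3, 2 and 2 of 13 passed in the 3 comparisons, SKP2A included, against 25%, 31.6% and 32.5% of all probe sets. The mitotic chromosome protein 3xHMG-box2 was at 236 and 353 in buds, 236 and 268 in flowers, and 199 and 181 in siliques, the same order of stages as AUR1. Its change in siliques against buds was −0.58 (adjusted p = 0.114), and it was called without buds 1 (−0.86, adjusted p = 0.0444). TPLATE, which works in endocytosis and cell plate formation, was at 86.7 and 100.4 in buds, 142 and 135 in flowers, and 91.6 and 98.9 in siliques (adjusted p = 0.0749 for flowers against buds and 0.0674 for siliques against flowers). FBL17, an F-box protein that removes cyclin-dependent kinase inhibitors, was at 90.6 and 107 in buds, 86.9 and 109 in flowers, and 109 and 116 in siliques. POLD3, a subunit of DNA polymerase delta, was at 56.5 and 70.2, 73.2 and 67.6, and 72.0 and 75.9 in the same order. UBC19, a ubiquitin-conjugating enzyme, ran from 223 to 273 over all 6 arrays.

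**Figure D4:**
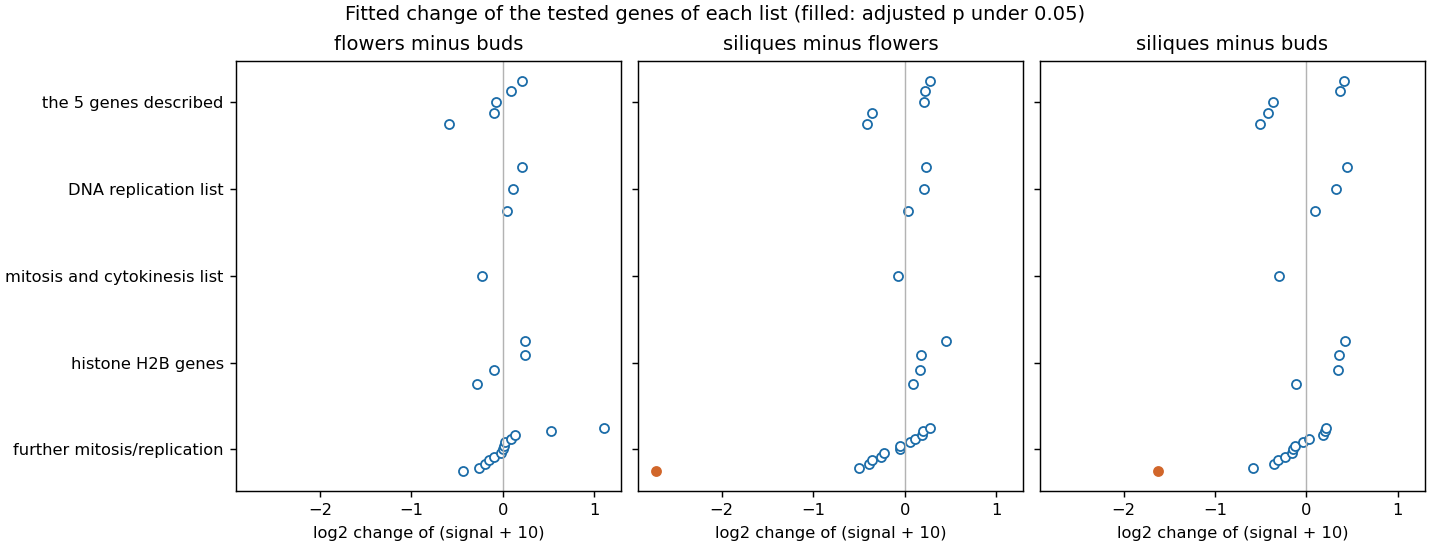
Fitted log2 change of signal + 10 (x axis) of each tested gene in the 3 comparisons, grouped by list (y axis, SIM not drawn); filled points have an adjusted p under 0.05. SKP2A (−2.72 and −1.62) is the only filled point, and the tested DNA replication genes lie to the right of 0 in each panel.

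The genes grouped under meiosis or DNA repair were mostly too dim to test. None of 8 meiosis genes passed the filter, with signals from 0.45 to 34.1 over all arrays. SDS, a cyclin of meiosis, was at 21.9 and 12.2 in buds and at 4.01 to 11.8 elsewhere, values at which an order cannot be read. Of 14 repair genes 12 were below the filter, and neither RAD4 nor ATNTH1 was called. RAD4 was at 78.1 and 64.4 in buds and 42.6 and 40.3 in siliques, a log2 change of −0.66 (adjusted p = 0.0556), which was called in the fit without an intensity trend (adjusted p = 0.0434).

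The genes most like each of the 5 were found by Pearson's r over the log2 signals of the 6 arrays, among 977 tested genes with a symbol. This measure compares the shape of a profile and not its size, and with 6 arrays in 3 stages high values are common. AUR1 was most like SBT4.13, a subtilase (r = 0.991), RL2 (AT5G45160, 0.990), and BPEp, a regulator of petal size (0.976). AUR2 was most like BPEp (0.969), SBT4.13 (0.968) and TY1, a plastid thioredoxin (0.958). AUR2 ranked 12 in the likeness to AUR1, and AUR1 ranked 8 in that to AUR2. SBT4.13 and BPEp had larger fitted changes in siliques than AUR1 and AUR2 had. SBT4.13 was at 447 and 583 in buds, 313 and 307 in flowers, and 64.9 and 56.9 in siliques (log2 change −2.88 against buds, adjusted p = 0.000180). BPEp was at 88.4 and 127 in buds, 99.6 and 78.5 in flowers, and 12.1 and 5.13 in siliques (adjusted p = 0.00139 against buds). These silique signals of BPEp are low, so the size of its log2 change depends on the offset, from −3.58 at an offset of 1 to −1.77 at an offset of 32. TY1 was called lower in siliques than in buds as well (adjusted p = 0.0231), a call lost without buds 1, buds 2, siliques 1 or siliques 2 (adjusted p = 0.0697 to 0.0997).

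ICU2 was most like scpl50, a carboxypeptidase-like gene (r = 0.977), FAC1, an AMP deaminase (0.966), and ILA (0.964). PRL was most like SAMBA, a regulator of the anaphase-promoting complex (0.982), THO5, of the THO complex for RNA export (0.967), and ATIM, the Arabidopsis homologue of Timeless (0.962). SAMBA was at 38.3 and 62.8 in buds, 47.2 and 52.4 in flowers, and 58.9 and 58.4 in siliques, so that it too had its lowest and highest value in the bud arrays. TOPII was most like MSRB3, a methionine sulfoxide reductase (0.943), NET1A, an actin-binding protein (0.911), and TRXF2, a plastid thioredoxin (0.909). TRXF2 was at 146 and 291 in buds, 134 and 165 in flowers, and 212 and 202 in siliques. Among the 5 genes, ICU2 ranked 28 in the likeness to PRL (r = 0.798) and TOPII ranked 66 (r = 0.691), and the correlation of AUR1 with ICU2 was −0.71.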

How the data were processed

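RNA of 6 samples was hybridised to 1-colour Affymetrix ATH1 arrays. The deposited values are signal intensity on a linear scale, made by the authors with MAS5 per the submitters' processing notes. Version, settings and detection calls are not given in the sources used here. The 2% trimmed mean of each array is 100.01, so the arrays share a scale. Precision is limited by having 6 arrays.

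From 22810 probe sets, 64 controls were removed. A gene was named only where its probe set was paired with 1 gene (13513 probe sets, 13436 of them in the RefSeq gene table, assembly TAIR10.1); 503 were paired with several genes and 8730 with none listed. No build is named in the files, so no coordinates are given, and no sequences were used here. Probe sets with a signal of 50 or more on at least 2 arrays were tested (12075).

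Signals were offset by 10 and log2 transformed. Models were fitted to all 6 arrays and 3 groups in limma 3.58.1 (R 4.3.3) by lmFit and contrasts.fit, then eBayes using a trend on intensity, leaving 3 residual degrees of freedom. Two-sided p-values were adjusted by Benjamini-Hochberg over all tested probe sets. The script was tested on simulated data. Stages share replicate numbers, and these pair the samples, since per the labels the entire experiment was done again; correlations of replicate differences were 0.34 (buds, flowers), −0.01 (buds, siliques) and 0.17 (flowers, siliques). A model with replicate as a term was an alternative.

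Named genes were the 5 members, called genes of each list (up to 4 a comparison), all genes of lists with under 6 tested genes, markers and the 3 genes most like each member. AMS and those genes of the further group that are named without a call were picked with their values in view. The members and lists were chosen with earlier results of these data known; the further mitosis, meiosis and repair groups were set up from the gene table's symbols. Other alternatives changed the offset, filter, normalization, variance model and arrays.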

Additional observations from a re-analysis of the deposited data

How the results depend on the processing

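Results were recomputed under 17 alternatives. None of the 5 genes was called under any of them with 3 exceptions. With the replicate block, 1 gene was called in siliques against buds, AUR1 (adjusted p = 0.0487), and the block changed no other call of the 5 genes. It called 1490 probe sets in flowers against buds, 2190 in siliques against flowers and 2427 in siliques against buds, against 1287, 1773 and 1878 without it. With 1 array left out, 0 to 1 of the 5 genes were called in flowers against buds and 0 to 1 in siliques against buds, TOPII without buds 1 and PRL without buds 2, with the values given above. A lone array is then assumed to vary like the other stages. With 1 array left out, the probe sets called numbered 580 to 1115, 251 to 2036 and 871 to 1808 in the 3 comparisons and 1219 to 2399 in the F test (2557 with all arrays). Without the filter, 1162 were called in siliques against flowers. AUR1 kept its direction in all 3 comparisons under 17 of 17 alternatives, and ICU2 under the 16 in which it was tested. In flowers against buds AUR2 turned to 0.022 with median centring, and with 1 array left out the log2 change ran from −0.15 to 0.0054 for AUR2, from −0.48 to 0.0013 for BPEp, from −0.44 to 0.63 for PRL and from −1.31 to 0.15 for TOPII. In siliques against buds it ran from −0.17 to 0.90 for PRL and from −1.09 to 0.37 for TOPII. Median centring moved the median change of all probe sets to 0.08, 0.11 and 0.17 in the 3 comparisons. The share of higher calls went from 49.2% to 60.5% in siliques against flowers and from 45.2% to 67.6% in siliques against buds. Centring sets the array medians equal, and these fell from buds to siliques, so it raised every change. Why the medians fell was not tested. Under the stricter filter only AUR1 and PRL were tested.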
